A study of Mus musculus with 8 samples.

Results

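The 9 genes described here encode the drivers of meiotic maturation: the B-type cyclins Ccnb1 and Ccnb2, their kinase Cdk1, the activating phosphatases Cdc25a and Cdc25b, the inhibitory kinases Wee2 and Pkmyt1, and the first kinases of the Mos-MAPK cascade, Mos and Map2k1. They were taken by symbol from a count table of 37224 genes, from a list drawn up by function with earlier results of these data known, and all 9 passed the filter on low counts that left 11066 genes for testing. The libraries came from 8 single mouse oocytes in second meiotic metaphase (MII), the arrested stage at which the egg is ovulated, collected from superovulated females. There were 4 oocytes of the genotype Setd1bGdf9cKO, a conditional knockout of the histone H3 lysine 4 methyltransferase gene Setd1b named after the oocyte gene Gdf9, and 4 oocytes of control mice. The alleles of the controls, the strain, the age of the females and the number of females per genotype are not given in the sources used here, so the p-values refer to the spread among oocytes, some of which may share a mother. Each library had been amplified from the RNA of 1 cell after priming on poly(A) tails, so a lower value can stand for fewer transcripts or for shorter tails, and these cannot be told apart.

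A fully grown oocyte waits in meiotic prophase with Cdk1 held inactive: cyclin B is kept low and Wee1-type kinases phosphorylate Cdk1 on its inhibitory sites, under the control of cAMP and protein kinase A. Resumption of meiosis follows when Cdc25 phosphatases remove these phosphates. During maturation cyclin B accumulates by translation of stored mRNA, since the oocyte no longer transcribes. Mos, a kinase made almost only in germ cells, activates MEK1 (encoded by Map2k1), which activates the ERK kinases, and this cascade holds the egg at metaphase II until fertilisation. Transcripts of these genes in the MII egg are therefore what is left of a store laid down during growth.

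The targeted gene was checked first. Setd1b stood at 4.43, 5.06, 2.97 and 3.54 CPM (counts relative to the scaled library total) in knockout libraries 1 to 4 and at 10.7, 12.8, 9.24 and 10.9 CPM in control libraries 1 to 4, a log2 fold change of -1.44 ± 0.41 (SE, n = 4 against 4). It was lower in every knockout oocyte (adjusted p = 0.0221), though when library totals alone set the scale the adjusted p was 0.0894, without knockout library 3 it was 0.0519 and without control library 2 it was 0.054. Knockout libraries held 9488899 to 11313502 counts and control libraries 11029602 to 13519404, and 3 counts correspond to between 0.225 and 0.331 CPM. All 10 oocyte markers examined were detected, with summed levels of 9995 to 14165 CPM in knockout and 12352 to 14821 CPM in control oocytes, although 4 of them were higher and 2 lower in the knockout, among them Zp2 (8.14-fold higher) and Oosp1 (2.70-fold lower). Of 24 markers of cumulus and granulosa cells, 13 had no count in any library, among them Inha, Fst, Amh, Foxl2, Ptx3, Lhcgr and Gja1, and the summed level of the list was 114 to 186 CPM in knockout and 216 to 244 CPM in control libraries, nearly all of it from Esr2, Cyp19a1 and Kitl. Of these, Esr2 (log2 fold change -0.80, adjusted p = 0.0103) and Cyp19a1 (-0.85, adjusted p = 0.0367) were lower in the knockout libraries, like the Ccnb1 and Wee2 transcripts below, and their part in the results was not tested.

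In the knockout oocytes, 3 of the 9 genes were lower (adjusted p under 0.05, edgeR's quasi-likelihood test with Benjamini-Hochberg adjustment over all tested genes, used throughout): Wee2, Ccnb1 and Map2k1, by 1.87-, 1.71- and 1.43-fold. None of the 9 was higher, with edgeR, DESeq2 or voom, or at an unadjusted p under 0.05. Across all tested genes 12.2% were called lower and 13.6% higher. The knockout libraries all lay below the control libraries for the same 3 genes, against 13.6% of all tested genes, and all above them for none, against 17.7%. The other 6 genes overlapped between the groups. The median log2 fold change of the 9 genes was -0.42, beside 0.10 over all tested genes, and 6 of the 9 values were negative. Leaving out 1 library at a time gave 2 to 4 genes called lower: 2 without knockout library 1, 2 or 3 or control library 1 or 2, and 4 without control library 4.

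**Figure D1:**
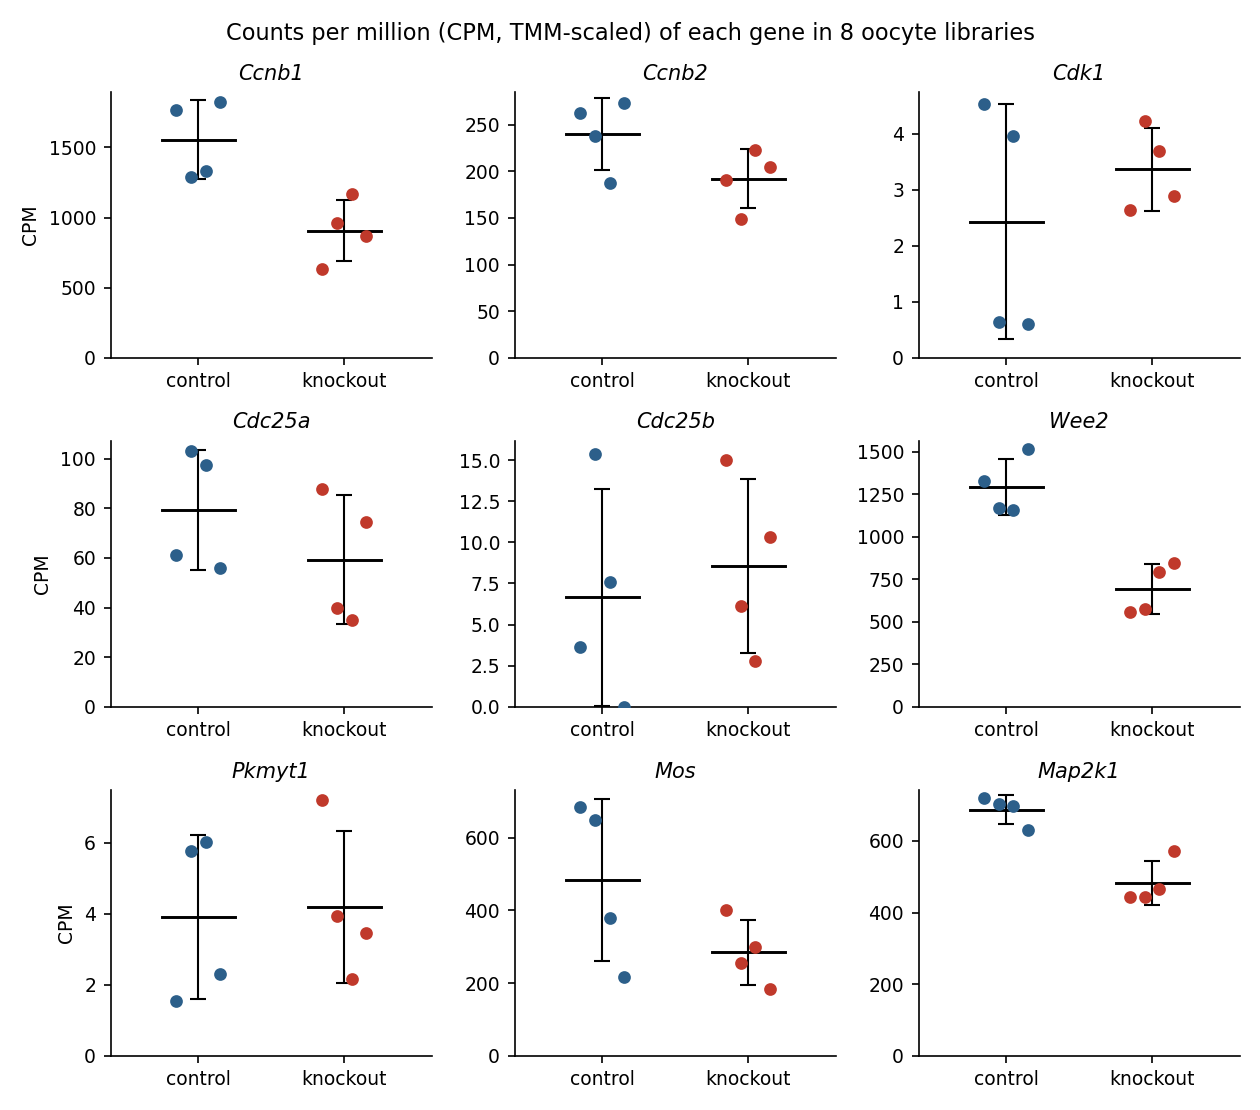
Each panel plots the level of 1 gene in CPM (scaled with TMM factors) for the 4 control and 4 knockout oocyte libraries, as points, with the mean as a long bar and the SD as error bars. The points of the groups are apart for Ccnb1, Wee2 and Map2k1 and overlap for the other 6 genes. Cdc25b has 0 counts in control library 4.

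Promoter sequences are shown for the 3 genes that were lower and for Ccnb2, the paralog of Ccnb1 that was not called, so that the genes can be set side by side. Each line gives the 250 bases before the RefSeq start (GRCm38.p6, written on the strand of the gene, 5′ to 3′), and capitals mark CCAAT, the core of the binding site of the factor NF-Y, and TTTGAA, a sequence of cell-cycle genes (the CHR element), searched on both strands (ATTGG and TTCAAA on the other strand). Ccnb1 lies at chr13:100786487-100786736 on the minus strand, Ccnb2 at chr9:70421555-70421804 on the minus strand, Wee2 at chr6:40442613-40442862 on the plus strand and Map2k1 at chr9:64253606-64253855 on the minus strand.
Ccnb1: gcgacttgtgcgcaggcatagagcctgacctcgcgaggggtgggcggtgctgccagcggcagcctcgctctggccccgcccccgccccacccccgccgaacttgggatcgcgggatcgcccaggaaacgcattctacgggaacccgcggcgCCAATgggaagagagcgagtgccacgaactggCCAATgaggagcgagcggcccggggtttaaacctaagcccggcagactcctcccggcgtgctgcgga
Ccnb2: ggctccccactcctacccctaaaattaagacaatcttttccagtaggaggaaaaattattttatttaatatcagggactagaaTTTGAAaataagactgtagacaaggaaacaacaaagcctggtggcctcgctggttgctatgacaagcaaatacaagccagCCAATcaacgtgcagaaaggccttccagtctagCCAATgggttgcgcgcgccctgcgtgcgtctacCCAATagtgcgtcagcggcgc
Wee2: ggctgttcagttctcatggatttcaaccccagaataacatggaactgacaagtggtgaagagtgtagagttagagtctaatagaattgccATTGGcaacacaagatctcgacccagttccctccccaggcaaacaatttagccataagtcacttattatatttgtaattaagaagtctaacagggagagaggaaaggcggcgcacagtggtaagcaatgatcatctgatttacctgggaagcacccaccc
Map2k1: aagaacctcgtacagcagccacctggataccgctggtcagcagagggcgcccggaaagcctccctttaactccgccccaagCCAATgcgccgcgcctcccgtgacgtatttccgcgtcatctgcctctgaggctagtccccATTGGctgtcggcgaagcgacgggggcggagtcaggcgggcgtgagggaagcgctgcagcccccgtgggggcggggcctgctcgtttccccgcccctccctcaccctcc

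Ccnb1 and Map2k1 hold 2 CCAAT matches each, Ccnb2 holds 3 and Wee2 holds 1. TTTGAA occurs once in the Ccnb2 window and not in those of Ccnb1, Wee2 and Map2k1. Only this spelling was searched, and only before the start. A missing match says nothing of other spellings or of bases after the start, and a match does not show a working element. The window of Ccnb1 has 28 CG dinucleotides and that of Map2k1 has 24, whereas the Ccnb2 window has 10 and the Wee2 window has 3, beside a median of 15 over the windows of 10474 tested genes. Among the genes with no call, Cdk1 has 3 CCAAT and 2 TTTGAA matches, Cdc25a has 2 CCAAT and Cdc25b has 1 CCAAT, and neither phosphatase gene has TTTGAA. Of all 32851 windows in the table, 33.8% hold CCAAT and 16.0% hold TTTGAA, and 35.8% and 10.9% do so among the tested genes. The table has no entry for Mos and Pkmyt1, so 7 of the 9 genes were matched. All 7 windows hold at least 1 CCAAT, whether or not the transcript was lower in the knockout.

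Ccnb1 encodes cyclin B1, the main partner of Cdk1 in the oocyte, which is translated from stored mRNA during meiotic maturation. The gene (ENSMUSG00000041431) lies at chr13:100778650-100786570 (GRCm38) on the minus strand, with 6 exon blocks in the deposited annotation. Ccnb1 was at 636, 959, 1166 and 868 CPM in knockout libraries 1 to 4 and at 1771, 1287, 1335 and 1823 CPM in control libraries 1 to 4. The highest knockout oocyte stayed below the lowest control oocyte. Means were 907 ± 220 and 1554 ± 282 CPM (SD, n = 4 each), a log2 fold change of -0.78 ± 0.21 (SE; 95% interval -1.22 to -0.33; adjusted p = 0.0165). Scaled by library totals only, the log2 fold change was -0.38 and the call was lost (adjusted p = 0.107). The knockout spread was wide, with library 1 at the bottom and library 3 at the top, and leaving out any 1 library gave -0.92 to -0.63 with adjusted p from 0.0109 to 0.0489.

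The Ccnb1 transcript has processed copies elsewhere in the genome. Of its 2415 distinct 75-base stretches, the length of the reads, 849 (35.2%) occur also in transcripts of Ccnb1-ps, Gm12856, Gm4870, Gm7483 or Gm8416, whereas none of the stretches of the other 8 genes occurs in another gene's transcript. Reads from such stretches can be lost or assigned to a copy, so the level of Ccnb1 is uncertain to that extent. Ccnb1-ps was at 49.1 ± 15 CPM in knockout and 65.2 ± 16.9 CPM in control libraries (SD, n = 4 each), which overlapped (log2 fold change -0.41, adjusted p = 0.294). With the counts of Ccnb1-ps and Gm12856 added to those of Ccnb1, which held 92.0% to 95.6% of the sum in each library, the log2 fold change was -0.75 (adjusted p = 0.0188).

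Ccnb2 encodes cyclin B2, the second B-type cyclin of the oocyte, which can stand in for cyclin B1 in part. The gene lies at chr9:70407689-70421554 on the minus strand, with 9 exon blocks. It was at 191, 149, 223 and 205 CPM in knockout libraries 1 to 4 and at 263, 238, 187 and 273 CPM in the controls. Control library 3 fell inside the knockout range, while the other 3 controls were above all knockout oocytes. Means were 192 ± 31.9 and 240 ± 38.6 CPM (SD, n = 4 each), and the log2 fold change of -0.32 ± 0.18 (SE; 95% interval -0.72 to 0.08) did not pass the test (adjusted p = 0.222). Its sign depended on the scaling: 0.08 with library totals only, and -0.88 (adjusted p = 0.00661) with a trend on gene length removed.

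Cdk1, the kinase that both cyclins activate, was barely represented in the counts. Its deposited length was 3445 bases, whereas an annotated GENCODE transcript had 4375, of which 3352 were 3′ UTR. Reads from bases outside the deposited annotation were not counted, so its level may be understated. The gene lies at chr10:69336635-69352938 on the minus strand. Its counts were 35, 56, 41 and 31 in knockout libraries 1 to 4 and 41, 8, 48 and 6 in the controls, or 2.63, 4.23, 3.69 and 2.89 CPM against 4.52, 0.640, 3.96 and 0.601 CPM. Controls 2 and 4 were low, and controls 1 and 3 were in or above the knockout range. The log2 fold change was 0.47 ± 0.78 (SE; 95% interval -1.23 to 2.16; adjusted p = 0.695). The interval is wide and spans both directions, so these libraries place no sign on Cdk1.

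Cdc25a and Cdc25b encode phosphatases that remove the inhibitory phosphates from Cdk1, and Cdc25b is the one that mouse oocytes need to resume meiosis. Cdc25a (chr9:109875579-109893888, plus strand) was at 88.0, 39.8, 34.8 and 74.6 CPM in knockout and 61.2, 103, 97.5 and 56.0 CPM in control libraries 1 to 4. Each group split into a high and a low pair, and the pairs interleaved. The log2 fold change was -0.42 ± 0.33 (SE; 95% interval -1.13 to 0.29; adjusted p = 0.373).

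Cdc25b (chr2:131186949-131198497, plus strand) was at 15, 6.12, 2.79 and 10.3 CPM in knockout and 3.64, 15.4, 7.59 and 0 CPM in control libraries 1 to 4. The counts behind these levels were 200, 81, 31 and 110 against 33, 192, 92 and 0, and 3 counts in control library 4 would be 0.3 CPM. The 2 groups overlapped over nearly all of their range. The log2 fold change of 0.36 ± 0.97 (SE; 95% interval -1.75 to 2.47; adjusted p = 0.819) took its sign from single libraries, at -0.06 without knockout library 1 or control library 4 and 1.18 without control library 2.

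Wee2 had the lowest adjusted p of the 9 genes. It encodes the oocyte-specific member of the Wee1 family, which phosphorylates and inhibits Cdk1, both to keep prophase arrest and to let the egg leave metaphase II. The gene lies at chr6:40442863-40466813 on the plus strand, with 13 exon blocks. Wee2 was at 558, 572, 794 and 845 CPM in knockout libraries 1 to 4 and at 1329, 1172, 1157 and 1515 CPM in control libraries 1 to 4. The lowest control oocyte was well above the highest knockout oocyte. Means were 692 ± 149 and 1293 ± 167 CPM (SD, n = 4 each), a log2 fold change of -0.90 ± 0.18 (SE; 95% interval -1.30 to -0.50; adjusted p = 0.00457). Wee2 stayed called under each alternative tried, from -0.51 (adjusted p = 0.0259) with library totals only to -1.34 (adjusted p = 0.00149) with the length trend removed, and in the fits without 1 library it ran from -1.01 to -0.80.

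The 3′ end of Wee2 is shown because among the 8 genes whose annotated 3′ end has an AATAAA signal (all but Pkmyt1) it alone held TTTTAT or TTTTAAT, forms of the cytoplasmic polyadenylation element through which stored oocyte mRNAs are lengthened, in the 100 bases before that signal. The stretch lies in the 3′ UTR at chr6:40466757-40466786 (GRCm38, plus strand), with the element in capitals and 13 bases between it and the signal.
Wee2 3′ end: tttttaacataTTTTAATccagatcattgt
An element and a signal so placed, ATTAAA counted as a signal too, were found in 1498 of 9259 tested genes with a 3′ UTR of at least 140 bases. That is 16.2% of these genes and 20.5% of those with a signal. The set leaves out Mos and Pkmyt1, whose 3′ UTRs have 126 and 124 bases. Only these spellings were searched, in 1 annotated transcript per gene, and a missing match says nothing of other spellings or positions.

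Pkmyt1, whose product Myt1 adds inhibitory phosphates to Cdk1 at internal membranes, was scarce. Its gene lies at chr17:23726336-23736729 on the plus strand, and its last part overlaps Paqr4 on the other strand, whose reads the unstranded counting cannot separate. Levels were 7.21, 3.93, 2.16 and 3.45 CPM in knockout and 1.54, 5.76, 6.03 and 2.30 CPM in control libraries 1 to 4. The groups overlapped. The log2 fold change was 0.10 ± 0.64 (SE; 95% interval -1.30 to 1.5; adjusted p = 0.929), and it turned negative with the length trend removed (-0.48) and without knockout library 1, control library 1 or control library 4 (-0.30, -0.17 and -0.09). The data therefore place no firm sign on Pkmyt1.

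Mos encodes the kinase that starts the MAPK cascade of the egg and is part of cytostatic factor, the activity that arrests it at metaphase II. The gene is 1 exon of 1449 bases at chr4:3870657-3872105 on the minus strand. Mos was at 400, 256, 298 and 185 CPM in knockout libraries 1 to 4 and at 684, 650, 379 and 218 CPM in control libraries 1 to 4. Control libraries 1 and 2 were above every knockout oocyte, and control libraries 3 and 4 lay inside the knockout range. Means were 285 ± 89.9 and 483 ± 223 CPM (SD, n = 4 each), a log2 fold change of -0.76 ± 0.34 (SE; 95% interval -1.49 to -0.03), with an unadjusted p of 0.0436 and an adjusted p of 0.12. Mos was thus not called, although its fold change was close to that of Ccnb1. It passed without control library 4 (-1.01, adjusted p = 0.0214), in DESeq2 (-0.80, adjusted p = 0.0443) and with the length trend removed (-1.35, adjusted p = 0.0124).

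Map2k1, which encodes MEK1, the kinase that Mos phosphorylates, had the smallest spread of the 9 genes. The gene lies at chr9:64185770-64253631 on the minus strand, with 11 exon blocks, and Uchl4 sits in one of its introns on the other strand. Map2k1 was at 444, 443, 467 and 572 CPM in knockout libraries 1 to 4 and at 721, 702, 697 and 631 CPM in control libraries 1 to 4. Knockout library 4 came nearest to the controls, and the groups did not overlap. Means were 482 ± 61.3 and 688 ± 39.2 CPM (SD, n = 4 each; coefficients of variation 12.7% and 5.70%), a log2 fold change of -0.51 ± 0.15 (SE; 95% interval -0.84 to -0.19; adjusted p = 0.0246). The call was fragile: it was lost without any one of knockout libraries 1, 2 and 3 and control libraries 1 and 2 (adjusted p from 0.0541 to 0.0843), with a filter of 10 CPM in 4 libraries (-0.39, adjusted p = 0.0569) and with library totals only (-0.12, adjusted p = 0.567), while with the length trend removed it was -0.91 (adjusted p = 0.00231).

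How the libraries were scaled moved all 9 values together. TMM factors, which correct totals for composition, were 1.07 to 1.22 in the knockout and 0.799 to 0.946 in the control group, and more genes had at least 10 counts in knockout libraries (11190 to 12153) than in control libraries (9913 to 10714). With totals only, the median over all tested genes went from 0.10 to 0.49, and with the length trend removed it was -0.22. Over all tested genes TMM scaling called 1503 higher and 1347 lower, totals only gave 2382 and 504, and the length trend fit gave 1028 and 2332. Relative to that median, Wee2 was at -1.0 under both TMM and totals, Ccnb1 at -0.88 and -0.87, Mos at -0.86 and -0.86, Map2k1 at -0.61 and -0.62, and Ccnb2 at -0.42 and -0.41. Such agreement follows from how the totals scaling works, since it shifts all genes by about the same amount. The length trend does not shift them alike, and with it removed Mos was at -1.13, Wee2 at -1.12, Ccnb1 at -0.88, Map2k1 at -0.68 and Ccnb2 at -0.66 relative to the median. In CPM by totals alone, Wee2 was at 678, 669, 847 and 956 in knockout libraries 1 to 4 and at 1093, 1084, 1093 and 1210 in the controls, and so did not overlap on that scale either. Ccnb1 did overlap, at 771, 1123, 1244 and 981 against 1457, 1190, 1261 and 1456.

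**Figure D2:**
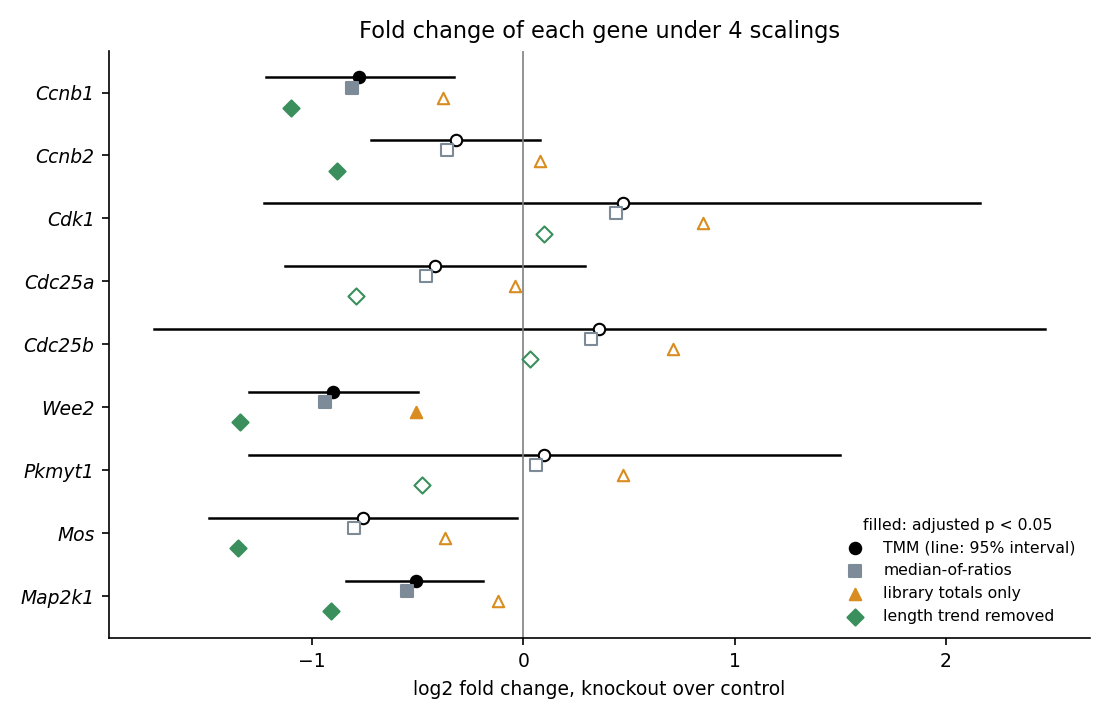
The log2 fold change of knockout over control on the horizontal axis is plotted for each gene under TMM scaling (circles, with 95% intervals), median-of-ratios size factors (squares), library totals only (triangles) and after removal of a length trend (diamonds), and filled symbols mark an adjusted p under 0.05. Wee2 is filled under all 4 scalings, and Ccnb2 changes sides between totals only (0.08) and the other scalings.

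Control libraries 1 and 4 stood apart from controls 2 and 3 in several of these genes. They had the lowest TMM factors, 0.824 and 0.799, and the highest levels of Ccnb1, Ccnb2 and Wee2 among the controls. The same 2 libraries had the lowest control levels of Cdc25a, Cdc25b and Pkmyt1. With totals alone they remained highest for Ccnb1, at 1457 and 1456 CPM. The part of this split in the differences between genotypes was not tested beyond the fits without 1 library.

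Compared per kilobase of deposited gene length, 5 of the transcripts were abundant, 3 were scarce and Cdc25a lay between them. In control oocytes the order of mean levels was Wee2 (427 CPM per kb), Ccnb1 (369), Mos (333), Map2k1 (203), Ccnb2 (156), Cdc25a (21.9), Pkmyt1 (1.92), Cdc25b (1.78) and Cdk1 (0.706). Wee2 ranked 127th of 11066 tested genes on this scale, Ccnb1 152nd and Mos 173rd, whereas Cdk1 ranked 9048th. The deposited length can exceed that of an annotated GENCODE transcript: 4217 against 2489 bases for Ccnb1, 3391 against 2436 for Map2k1 and 3028 against 2884 for Wee2. The order of Wee2 and Ccnb1 and these ranks therefore depend on the length used. The ranges over the 4 control oocytes overlapped between neighbours from Wee2 down to Map2k1 and from Pkmyt1 down to Cdk1, and were apart between Map2k1 and Ccnb2, Ccnb2 and Cdc25a, and Cdc25a and Pkmyt1. Measured levels of Wee2 and both cyclins were far above that of the kinase they regulate. Differences in tail length between these mRNAs, and Cdk1 reads outside the deposited annotation, were not measured. In knockout oocytes the order was the same except that Cdc25b (2.29 CPM per kb) came before Pkmyt1 (2.05), and their ranges overlapped. Wee2 (229 CPM per kb), Ccnb1 (215) and Mos (197) overlapped there as well, and so did Map2k1 (142) and Ccnb2 (125), which were apart in the controls.

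**Figure D3:**
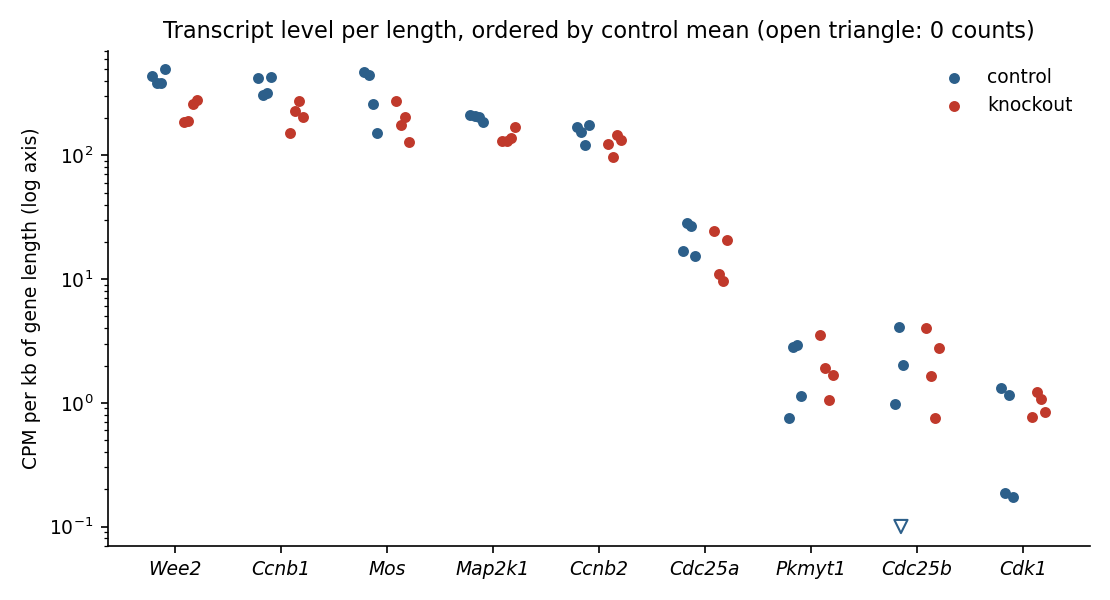
Levels in CPM per kb of gene length on a log axis are plotted for each of the 4 control and 4 knockout libraries, with the genes ordered by their control mean. The 5 genes from Wee2 to Ccnb2 reach down to 96.4 CPM per kb in any library, and Pkmyt1, Cdc25b and Cdk1 reach up to 4.12, with the open triangle marking the library with 0 counts of Cdc25b.

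Ratios of 2 genes within a library do not depend on a factor applied to the whole library, such as TMM factors or totals. They can depend on the length trend, which was not removed from them. In all, 6 ratios were compared, each as log2 of counts per kb with 1 count added. The ratio of Ccnb1 to Cdk1 was 7.58, 7.51, 7.98 and 7.89 in knockout libraries 1 to 4 and 8.29, 10.51, 8.08 and 11.05 in the controls, so that all knockout values were below all control values. The difference of -1.74 had an exact two-sided permutation p of 0.0286, the smallest that 4 against 4 libraries allow, and of 0.171 adjusted over the 6 ratios. Control libraries 2 and 4, in which Cdk1 had few counts, gave the 2 highest ratios. Ccnb1 over Ccnb2 was 0.28, 1.24, 0.93 and 0.63 against 1.3, 0.98, 1.39 and 1.29, a difference of -0.47 (exact permutation p = 0.0571, adjusted 0.171).

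No ratio passed after adjustment. The balance of inhibitory kinase to activating phosphatase, Wee2 over Cdc25b, was 6.85 ± 1.19 in knockout and 9.26 ± 3.41 in control libraries (SD, n = 4 each; exact permutation p = 0.2, adjusted 0.24). Wee2 over Pkmyt1 was 6.87 ± 0.95 against 7.97 ± 1.09 (exact permutation p = 0.2, adjusted 0.24), and Cdc25b over Cdc25a was -2.96 ± 0.47 against -4.93 ± 2.88 (exact permutation p = 0.114, adjusted 0.229). Control library 4, with 0 counts of Cdc25b, carried both ratios that involve this gene: its values of 14.19 and -9.17 depend on the 1 count added, and without it the differences went from -2.41 to -0.77 for Wee2 over Cdc25b and from 1.97 to 0.56 for Cdc25b over Cdc25a. Mos over Map2k1 was 0.42 ± 0.61 against 0.58 ± 0.70 (exact permutation p = 0.771, also after adjustment), a difference smaller than the spread.

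The authors' deposited table of changed genes, which holds no adjusted p above 0.009996, lists the same 3 of the 9 genes. In the authors' deposited table the unshrunken log2 fold changes were -0.94 for Wee2 (adjusted p = 4.04e-05), -0.82 for Ccnb1 (adjusted p = 0.00205) and -0.55 for Map2k1 (adjusted p = 0.000819).

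Of 30 other genes of the Cdk1-cyclin B module, 28 were tested, 6 were higher and 5 were lower, with a median log2 fold change of 0.09 (0.00 to 0.20 without 1 library) against 0.10 over all genes. For this list and the 3 that follow, the shares over all tested genes were 13.6% higher and 12.2% lower. With library totals only the split was 11 higher and 0 lower, and with the length trend removed it was 4 higher and 10 lower. Among relatives of the 9 genes, Cdk2 went from 1.56 ± 2.28 CPM in control to 18.2 ± 1.55 CPM in knockout libraries (SD, n = 4 each; log2 fold change 3.56, adjusted p = 0.0183; 5.41 without control library 4). Cdc25c, the third Cdc25 phosphatase, was higher (2.45, adjusted p = 0.0402), a call lost without any one of libraries 1 to 3 of either group (adjusted p from 0.0665 to 0.108), and its value was 3.52 without control library 4. Ccnb3 (0.44, adjusted p = 0.176) and Wee1 (1.25 ± 1.3 against 1.59 ± 1.86 CPM, SD, n = 4 each; -0.34, adjusted p = 0.867) did not pass. Ccnb3, a B-type cyclin of meiosis, was called higher with totals only (0.85, adjusted p = 0.0172).

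Further members of that module were Cdkn1b, the inhibitor p27 (2.32, adjusted p = 0.00181), and Cdk7 and Ccnh, the kinase and cyclin that activate Cdk1 by phosphorylation (1.19, adjusted p = 0.00413, and 1.99, adjusted p = 0.0122, or 0.0556 without knockout library 2), all of them higher. Lower were the 14-3-3 gene Ywhab (-0.86, adjusted p = 0.0116), the phosphatase 2A subunit gene Ppp2r2a (-0.85, adjusted p = 0.0122) and the A-type cyclin Ccna2 (-0.51, adjusted p = 0.0276). The call of Ccna2 was lost in 5 of 8 fits without 1 library (adjusted p from 0.0568 to 0.0836), each without 1 of knockout libraries 1, 2 and 3 and control libraries 1 and 3. None of these 3 lower genes passed with library totals only.

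In the cAMP and protein kinase A arm, which holds prophase arrest, 12 of 17 genes were tested. The anchoring protein gene Akap7 was lower (156 ± 30.4 against 277 ± 51.7 CPM, SD, n = 4 each; log2 fold change -0.83, adjusted p = 0.00995; -0.43 and 0.0813 with totals only). None was higher in the main edgeR fit, while 2 were higher at an unadjusted p under 0.05 and DESeq2 and voom called 1 each. With a filter of 10 CPM in 4 libraries edgeR called 2 higher, without control library 3 also 2, and without knockout library 3 it called 1. The receptor gene Gpr3, which keeps cAMP high in the oocyte, had a value of 0.81 (adjusted p = 0.0912), Adcy9 of -0.91 (adjusted p = 0.079) and Akap1 of 0.68 (adjusted p = 0.0504). The list median was -0.21 (-0.41 without knockout library 4 to -0.15 without knockout library 3). With library totals only it was 0.17, with 2 genes higher and 0 lower, and with the length trend removed 0 were higher and 4 lower.

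Downstream of Mos and Map2k1, 21 of 23 other genes of the cascade were tested, 3 were higher and 1 was lower, with a median of 0.12 (-0.01 without control library 4 to 0.23 without control library 2). With library totals only 6 were higher and 1 was lower, and with the length trend removed 1 was higher and 3 were lower. ERK1, encoded by Mapk3, was at 118, 88.6, 38.2 and 63.1 CPM in knockout and at 39.9, 44.8, 40.3 and 36.7 CPM in control libraries 1 to 4, with knockout library 3 inside the control range. Its log2 fold change of 0.93 passed (adjusted p = 0.0406) but lost the call in 7 of the 8 fits without 1 library, all but that without knockout library 3 (adjusted p from 0.0553 to 0.145). Map2k2, the paralog of Map2k1, was not called (3.77 ± 1.92 against 3.46 ± 3.08 CPM, SD, n = 4 each; 0.12, adjusted p = 0.929). Dusp1, a phosphatase that inactivates MAP kinases, was the lower one, at 25, 25.3, 8.28 and 24.7 CPM against 91.6, 80.5, 126 and 92.7 CPM (-2.23, adjusted p = 0.00082). The exchange factor gene Sos1 (2.02, adjusted p = 0.00599) was higher.

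Of 14 genes of metaphase II arrest and its release, 11 were tested, 3 were higher and 1 was lower, beside 13.6% and 12.2% of all tested genes. The median of 0.47 was unstable, at 0.17, 0.21 and 0.20 without knockout library 2, 3 or 4 and 0.29 and 0.14 without control library 1 or 2. With library totals only 5 were higher and 1 was lower, and with the length trend removed 3 were higher and 3 lower. Fbxo5, which encodes the APC/C inhibitor Emi1, was lower (137 ± 36.8 against 338 ± 77.0 CPM, SD, n = 4 each; -1.30, adjusted p = 0.00216), and Fbxo43, which encodes Emi2, the target that Mos signalling stabilises, was not called (199 ± 2.76 against 264 ± 43.6 CPM; -0.41, adjusted p = 0.0816). Calm2 (4.31, adjusted p = 4.69e-06), Calm3 (4.30, adjusted p = 0.00219; 5.54 without control library 4) and Camk2g (1.35, adjusted p = 0.000251), which carry the calcium signal of fertilisation, were higher.

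**Figure D4:**
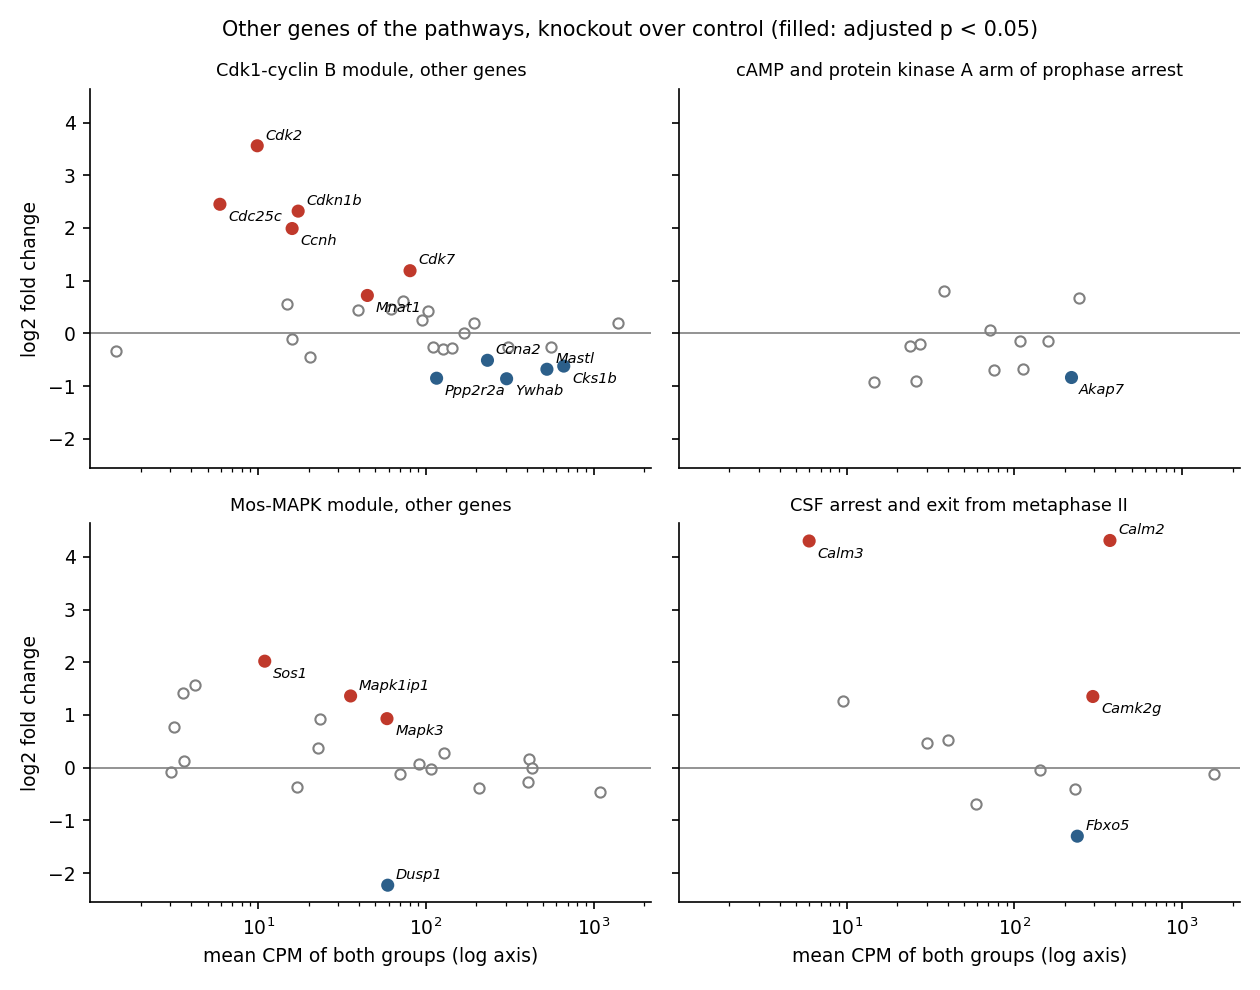
The log2 fold change (vertical axis) of each tested gene of the 4 lists around the drivers is plotted against its mean CPM over both groups (log axis), with called genes filled, red where higher and blue where lower. The called higher genes of the Cdk1-cyclin B list lie at lower mean CPM than its called lower genes, and Calm2 and Calm3 lie above 4.

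Lastly, the genes whose levels ran most like those of Ccnb1 and of Mos over the 8 libraries were listed, as Pearson correlations of log2(CPM + 1) among 6498 genes whose mean reached 10 CPM. For Ccnb1 they were Paip1 and Ptcd3 (both 0.993), Zbtb21 (0.990), Dnajb4 (0.988) and Clk1 (0.987), and each of these was itself lower in the knockout oocytes. For Mos they were Wdhd1 (0.946), Tmf1 (0.919), Fbxw4 (0.909), Pnma5 (0.896) and Gabra3 (0.889), of which Pnma5 was called (-1.14, adjusted p = 0.04). These correlations describe 8 libraries that share 2 genotypes and their scaling.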

How the data were processed

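The authors' deposited counts were whole numbers per gene from single-oocyte libraries. Per the submitters' processing notes, GSNAP, featureCounts 1.4.4, DESeq2 1.3.79 and build mm10 were used, and per the file headers the counts used Ensembl release 69, a minimum mapping quality of 1 and no strand setting. The authors' deposited comparison table holds log2 fold changes, their standard errors and statistics (a score), p-values, library-wise normalized signal and RPKM, of which only fold changes and adjusted p-values were used. The kit carried no molecular identifiers, so counting precision covers counting error only.

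Here, edgeR 4.0.16 in R 4.3.3 was fitted to all 8 libraries (TMM, filterByExpr, genotype only), with Benjamini-Hochberg adjustment over 11066 genes and a threshold of 0.05. The SE is the size of the log2 fold change over the square root of F. The edgeR step was tested on simulated data. Alternatives used DESeq2 1.42.0, limma 3.58.1 (voom), other scalings and filters, a replicate block, a loess trend on gene length and each library left out. The 9 genes and all lists were chosen with earlier results of these data known. Named from the lists were relatives of the 9 genes, Mapk3 and up to 6 others per list by smallest p, of which the text gives most, and the 5 genes most like Ccnb1 and Mos. A gene that the rule names is not reported here. Of 37224 identifiers, 35449 were named from a gene name table and 10 from the deposited comparison, and 0 columns belonged to no sample. Promoters and the 3′ end came from RefSeq and GENCODE tables.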

Additional observations from a re-analysis of the deposited data

How the results depend on the processing

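Over the alternative settings, 129 of 150 values of the 9 genes kept their direction and side of the threshold, 10 lost a call, 4 gained one and 7 changed sign. With library totals only, 2382 genes were called higher and 504 lower, and 1 of the 9 genes stayed lower (main: 1503, 1347 and 3). With the length trend removed, 2332 were lower, and 5 of the 9. At an adjusted p of 0.01, 1391 genes were called, 747 higher and 644 lower, and 1 of the 9. Leaving out 1 library gave from 1849 (without knockout library 2) to 2841 genes called and from 837 to 1244 lower. Signs changed for Ccnb2 (0.08), Cdk2ap2 (0.01) and Wee1 (0.05) with totals only, and for Pkmyt1 (-0.48) and Map2k2 (-0.21) with the length trend removed. They also changed in fits without 1 library for Cdc25b (-0.06 to 1.18), Pkmyt1 (-0.30 to 0.38), Map2k2 (-0.24 to 0.79) and Wee1 (-1.21 to 0.84). The cause was not tested. No label says what the replicate numbers mark. The deviations of same-numbered libraries correlated at -0.117 to -0.021, and no library correlated best with its own number. With so few libraries this check cannot decide whether the numbers pair the oocytes. With a replicate block, 861 genes were called lower and 1 of the 9 genes, with Setd1b at an adjusted p of 0.07, Ccnb1 at 0.0578 and Map2k1 at 0.0945. Low counts limit Cdk1, Cdc25b and Pkmyt1.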
